A study of Mus musculus with 12 samples.

Results

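The genes of the cytosolic ribosomal proteins were compared between lungs of newborn cavin-1 KO and WT mice. Genes were chosen by their symbol alone, as every probe annotated to a numbered *Rpl* or *Rps* gene, to the P stalk genes *Rplp0*, *Rplp1* and *Rplp2*, or to *Rpsa*. This gave 92 of 45281 probes and 62 of 19057 genes: 30 genes of the large subunit, 23 of the small subunit, 3 of the P stalk and 6 paralogs. Other ribosomal protein genes, such as *Rpl5* and *Rpl11*, were not analysed here. *Rpl36al* fell outside the symbol rule and is counted in a related list below. Total RNA came from whole lungs of 6 KO and 6 WT newborns of the C57/Bl6 strain, and each lung was measured on its own Illumina bead array. The KO mice lacked cavin-1 in all tissues from a targeting vector with a lacZ/neo cassette, and the WT mice were littermates according to the study's methods. All values below are background-corrected, quantile-normalized log2 signals, and each difference is KO minus WT on that scale.

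Ribosomal proteins assemble with ribosomal RNA in the nucleolus into a large and a small subunit, which join on mRNA to make protein. Their mRNAs are among the most abundant of most cells and begin with a run of pyrimidines, the 5′ TOP motif, through which mTORC1 controls their translation. Cavin-1 coats caveolae at the plasma membrane. It is also known as PTRF, polymerase I and transcript release factor, since it was first described as a factor that releases ribosomal RNA transcripts together with the termination factor TTF1.

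Cavin-1 mRNA was low on 5 of the 6 KO arrays. Its 2 probes averaged 2.09 ± 0.49 and 4.55 ± 0.79 in these 5 KO lungs, against 8.52 ± 0.28 and 11.66 ± 0.08 in WT lungs (SD, n = 5 and 6). In the library labelled KO 157 they read 8.47 and 11.66, at the WT level, and its 2 labels give different animal numbers. Results are therefore also given without this library where it mattered. The lung was recognizable in both groups: 11 of 11 lung epithelium markers were detected, with summed linear signals of 96960 to 113621 in KO lungs and 96535 to 115588 in WT lungs. A sum follows its brightest genes. Of the 11 markers, 8 had a positive and 3 a negative difference, and *Scgb1a1* was lower in KO lungs (−0.41, adjusted p = 0.0836 from limma). In whole tissue, fewer cells of a type and less RNA per cell cannot be told apart.

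Pyrimidine runs near the transcript starts of the genes described in most detail are shown first, since such a run is the sequence that ribosomal protein mRNAs are known to share. Each line gives 30 bases of the coding strand from RefSeq (GRCm38.p6) around the longest run of C or T near the annotated start, 5′ to 3′, with the run in capitals. The line also gives where the run begins, counted in bases from the annotated start at 0. The annotated start itself lies inside the run in *Rps10*, and outside it in the other genes shown. The runs of *Rps25* and *Rps27l* lie wholly before the annotated start. The run of *Rpl41* reached the end of the sequence that was available, so it may be longer.
Rps25 (chr9:44407684-44407713, plus strand, run from −22): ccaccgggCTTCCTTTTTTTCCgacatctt
Rps10 (chr17:27635227-27635256, minus strand, run from −3): ccgcgcacgCCCCTTCCTTTCCagcctccg
Rpl19 (chr11:98026944-98026973, plus strand, run from 32): gcggcccacaagCTCTTTCCTTTCgctgct
Rpl10a (chr17:28328572-28328601, plus strand, run from 17): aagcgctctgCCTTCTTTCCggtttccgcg
Rpsa (chr9:120127774-120127803, plus strand, run from 20): tccggccgcccgTCCTTTCgcgctacccgg
Rpl41 (chr10:128549119-128549148, minus strand, run from 40): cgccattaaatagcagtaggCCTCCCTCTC
Rplp0 (chr5:115559466-115559495, plus strand, run from 11): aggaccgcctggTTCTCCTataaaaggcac
Rps27l (chr9:66946053-66946082, plus strand, run from −22): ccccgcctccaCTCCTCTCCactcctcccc
A promoter entry existed for 51 of the 62 genes. A run of at least 8 C or T bases that reached into the window from −20 to 50 of the start was present in 39 of these 51 genes (76.5%), against 31.1% of 27025 genes. The letters CTCTTTC, searched on the coding strand in the same window, occurred in 9 of 51 genes (17.6%) and in 1.11% of all genes. The letters CCGGAAG, searched on both strands over the 250 bases before to 50 bases after the start, occurred in 23 of 51 genes (45.1%) and in 9.93% of all genes. In *Rpl19* the run held CTCTTTC. In *Rplp0* and *Rpsa* the longest run was 7 bases.

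None of the 62 ribosomal protein genes passed an adjusted p of 0.05 in limma, where 0.0945% of all genes were called higher and 0.105% lower in KO lungs. At an unadjusted p under 0.05, 12 genes were higher (19.4%) and 4 were lower (6.45%) in KO lungs, against 6.22% and 7.44% of all genes. Of 5125 other genes with a mean log2 signal of at least 6.845, a level that most detected ribosomal protein genes reach, 10.6% were higher and 13.2% lower. The higher count depended on the scaling of the arrays: with median scaling 1 gene was higher and 3 lower, and with no normalization between arrays, where the median of all genes moved to −0.26, 0 were higher and 20 lower. The shares over all genes are not given for these settings. SAM at q = 0 called no ribosomal protein gene. The median difference over the 62 genes was 0.04, against −0.01 over all genes, and 34 genes had a positive and 28 a negative difference. The values were precise, with a median SE of 0.09. For 47 of the 55 genes with at least 1 probe detected on all 12 arrays the 95% interval of the difference lay within −0.5 to 0.5, and for 54 it lay within −1 to 1. The ribosomal protein genes had small differences in both directions, from −0.67 to 0.34. Without the library labelled KO 157, no gene passed, and 14 were higher and 3 lower at an unadjusted p under 0.05. Over all 19057 genes, 1044 were then higher and 1242 lower at such a p. Of the 16 genes above, 15 kept such a p and all 16 kept their sign.

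**Figure D1:**
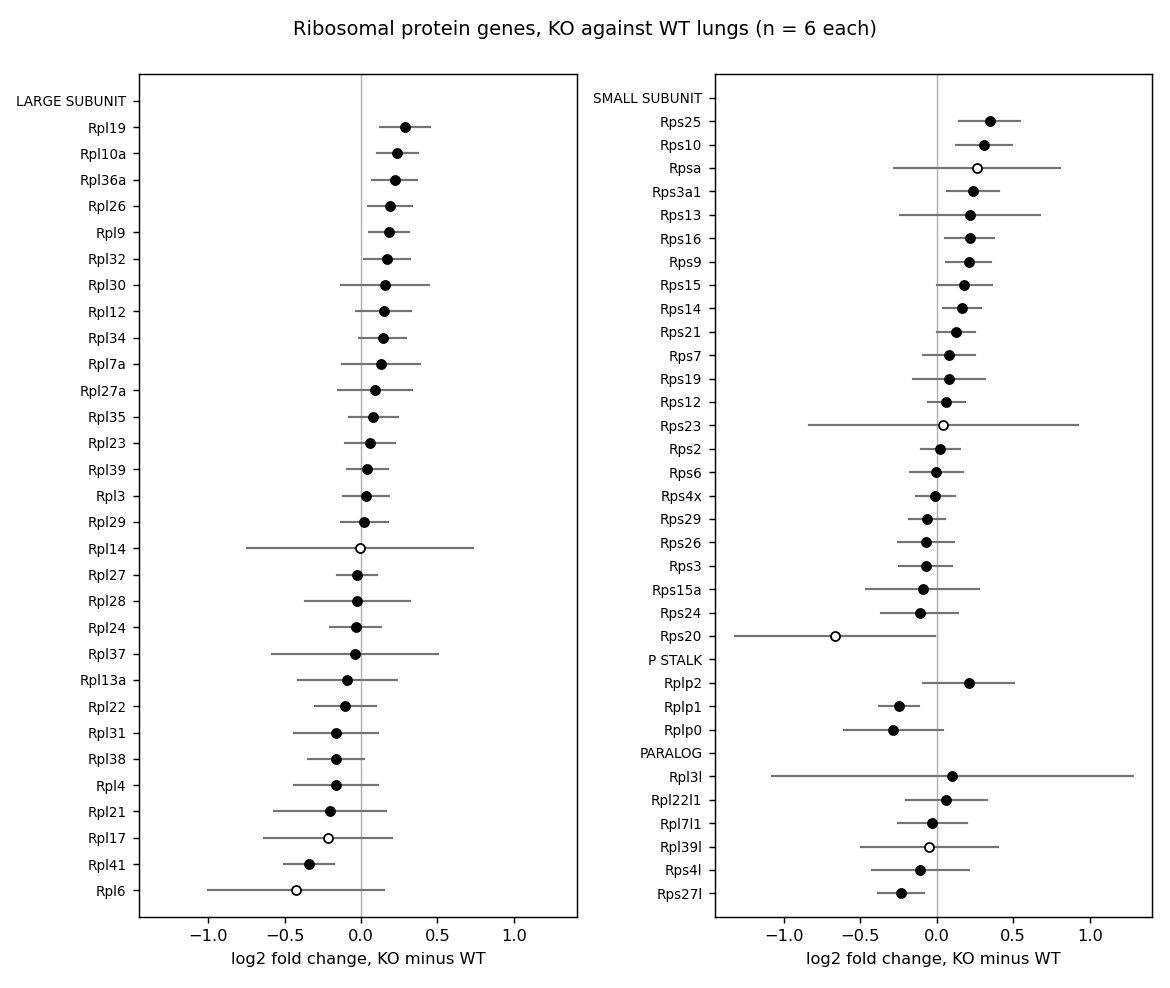
Difference of each of the 62 ribosomal protein genes between KO and WT lungs (log2 fold change, x axis), with its 95% interval from limma, grouped by large subunit, small subunit, P stalk and paralog. Filled points had at least 1 probe detected on all 12 arrays and open points had none; most intervals are narrow and lie on both sides of 0, and none of the 62 genes passed the adjusted threshold.

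In the small subunit, 6 of 23 genes were higher (26.1%) and 1 was lower (4.35%) in KO lungs at an unadjusted p under 0.05. The shares over all genes were 6.22% and 7.44%, and the median difference in the small subunit was 0.08. *Rps25*, whose protein is needed for initiation at several internal ribosome entry sites, had the largest positive difference of all 62 genes. Its levels were 11.99, 12.17 and 12.52 in KO lungs and 11.68, 11.86 and 12.02 in WT lungs (lowest, median and highest). The groups overlapped only through the lowest KO value, that of the library labelled KO 157. The difference was 0.34 (SE 0.09, adjusted p = 0.112 from limma, n = 6 each), a 1.27-fold higher level in KO lungs. *Rps10*, a gene mutated in some families with Diamond-Blackfan anaemia, read 13.06, 13.23 and 13.33 in KO lungs and 12.60, 12.91 and 13.13 in WT lungs. Here too only the library labelled KO 157 lay inside the WT range, and the difference was 0.31 (SE 0.09, adjusted p = 0.128). The other 4 higher genes of the small subunit were *Rps3a1* (0.24), *Rps16* (0.22), *Rps9* (0.21) and *Rps14* (0.17), of adjusted p from 0.194 to 0.221, and *Rps14* had no overlap between groups. They are named for their unadjusted p.

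Other small subunit genes of known roles had smaller differences or dim probes. *Rps6*, the substrate of the S6 kinases downstream of mTORC1, had levels of 13.33, 13.52 and 13.55 in KO lungs and 13.29, 13.49 and 13.67 in WT lungs. The KO range lay inside the WT range, and the difference was −0.0040 (SE 0.08, adjusted p = 0.991 from limma), with a 95% interval from −0.18 to 0.17. *Rps19*, the gene most often mutated in Diamond-Blackfan anaemia, had a difference of 0.08 (SE 0.11, adjusted p = 0.815) as the median of its 2 probes. The probes differed in level: the one at 14.62 ± 0.08 in KO lungs and 14.41 ± 0.05 in WT lungs had a difference of 0.22 (adjusted p = 0.162 among probes), and the one at 5.40 ± 0.39 in KO lungs and 5.46 ± 0.34 in WT lungs had −0.06. *Rps20* had the largest negative difference, −0.67 (SE 0.31, adjusted p = 0.353). Its probe was dim, with levels of 3.17, 4.32 and 4.91 in KO lungs and 4.29, 4.86 and 5.04 in WT lungs, and the 2 lowest KO lungs, KO 192 and KO 237, were not above background. *Rpsa*, which encodes a small subunit protein also known as a laminin receptor, was near background on all arrays: its better probe was detected on 6 of 12 arrays, and the gene averaged 2.88 ± 0.26 in KO lungs and 2.62 ± 0.57 in WT lungs (difference 0.26, adjusted p = 0.713).

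In the large subunit, 6 of 30 genes were higher (20%) and 1 was lower (3.33%) at an unadjusted p under 0.05. The shares over all genes were 6.22% and 7.44%, and the median difference in the large subunit was 0.03. *Rpl19*, whose protein reaches across to the small subunit, read 12.30, 12.43 and 12.48 in KO lungs and 11.89, 12.16 and 12.28 in WT lungs. The groups did not overlap, and the difference was 0.29 (SE 0.08, adjusted p = 0.111 from limma). *Rpl10a*, whose protein forms the L1 stalk at the tRNA exit side, read 14.57, 14.69 and 14.74 in KO lungs and 14.25, 14.48 and 14.50 in WT lungs. These groups did not overlap either, and the difference was 0.24 (SE 0.06, adjusted p = 0.107). The lowest WT value was that of WT 142, which stood apart from the other WT lungs at 14.46 to 14.50. The deposited bead signals of *Rpl10a* overlapped and were lower in KO lungs, with medians of 22157 in KO and 25712 in WT lungs. Its rank by signal on an array, with 1 as the brightest probe, was 6 to 36 in KO lungs and 50 to 90 in WT lungs. The other 4 higher genes, *Rpl36a* (0.22), *Rpl26* (0.19), *Rpl9* (0.18) and *Rpl32* (0.17), had adjusted p from 0.181 to 0.309. The deposited bead signal of *Rpl9* also had a lower median in KO lungs (23726) than in WT lungs (28941). The highest signal of any probe was lower on the KO arrays too, as given below for *Rplp1*.

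The gene with the smallest p of all 62 was lower in KO lungs. *Rpl41* encodes an exceptionally short and basic protein of the large subunit, and its levels were 14.11, 14.26 and 14.46 in KO lungs and 14.49, 14.54 and 14.77 in WT lungs. The groups did not overlap, with the library labelled KO 157 as the highest KO lung. The difference was −0.34 (SE 0.08, adjusted p = 0.0812 from limma), and −0.39 (adjusted p = 0.0537) without that library. *Rpl41* passed the threshold in 5 of 30 other settings. The 30 include gene symbols as annotated, a setting that took over the main values and could not differ from them. Where genes whose probes were not detected on at least 6 arrays were left out, its adjusted p was 0.0474, and 88 of the 11599 genes then tested passed (0.759%, each gene taken over its detected probes). A stricter filter, on a detection p under 0.01, gave 0.0433, and 0.995% of the 10650 genes then tested passed. Array weights gave 0.0441.

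The P stalk, the flexible arm of the large subunit that recruits elongation factors, held genes with differences of both signs. *Rplp1* read 14.40, 14.55 and 14.71 in KO lungs and 14.74, 14.84 and 14.84 in WT lungs. The groups did not overlap, and the difference was −0.25 (SE 0.06, adjusted p = 0.094 from limma). In 4 of 6 WT lungs the *Rplp1* probe had the highest signal of all 45281 probes, so quantile normalization gave these 4 arrays the same value, the top of the scale. Its rank among the probes of an array ran from 11 to 66 in KO lungs and from 1 to 7 in WT lungs. Its deposited bead signal was 15992 to 24189 in KO lungs and 28929 to 36288 in WT lungs, where the highest signal of any probe on an array was 19883 to 26632 in KO lungs and 28929 to 38121 in WT lungs. *Rplp1* passed the threshold in 3 of the same 30 other settings, with adjusted p of 0.0469 after the stricter detection filter and 0.0417 without KO 192. *Rplp0*, the base of the stalk, had a difference of −0.29 (SE 0.15, adjusted p = 0.434), with levels of 7.13, 7.64 and 8.11 in KO lungs and 7.64, 7.98 and 8.21 in WT lungs that overlapped widely. *Rplp2*, the partner of *Rplp1*, had a difference of 0.21 (SE 0.14, adjusted p = 0.556). This was the median of a probe at 14.27 ± 0.14 in KO lungs and 14.01 ± 0.16 in WT lungs (difference 0.26, adjusted p = 0.191 among probes) and a probe that was detected on 0 arrays. Without the library labelled KO 157 the difference was 0.09 for *Rplp2* and −0.18 for *Rplp0*. The brighter probe of each gene kept its difference, at 0.26 for *Rplp2* and −0.19 for *Rplp0* without it. The dimmer probes moved, from 0.16 to −0.08 for *Rplp2* and from −0.39 to −0.17 for *Rplp0*.

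**Figure D2:**
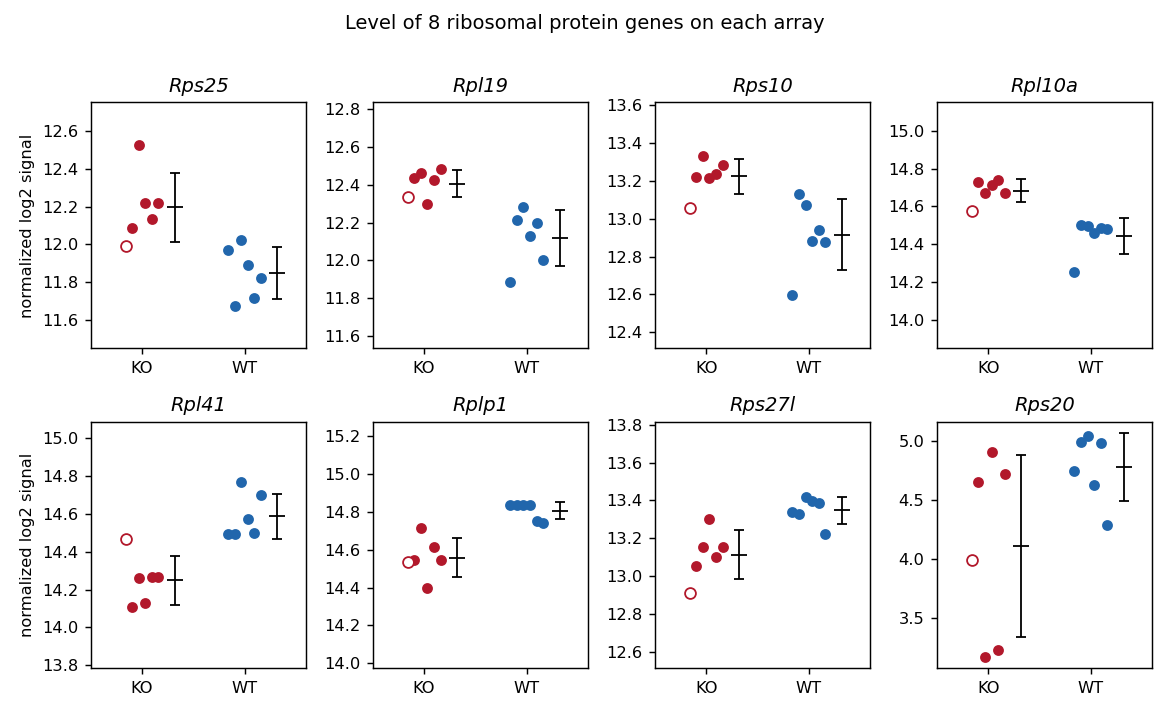
Normalized log2 signal of 8 ribosomal protein genes on each array, KO left of WT in each panel, with the mean and SD to the right of each group and the library labelled KO 157 as an open point. *Rpl19* and *Rpl10a* lie higher in KO lungs and *Rpl41* and *Rplp1* lower, with no overlap, and the 4 highest WT values of *Rplp1* coincide; the axes of all panels but *Rps20* span the same range.

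Groups that did not overlap were found for 3 higher genes (*Rpl19*, *Rpl10a* and *Rps14*) and 2 lower genes (*Rpl41* and *Rplp1*). These were 4.84% and 3.23% of the 62 genes, against 0.54% and 0.939% of all genes. Among the 5125 other genes with a mean log2 signal of at least 6.845, the shares were 1.15% and 2.20%. Without the library labelled KO 157, the higher ribosomal protein genes with no overlap numbered 6 (9.68%) and the lower ones 2, against 0.714% and 1.18% of all genes. These counts take each gene as the median over its probes. With all 12 arrays, a bright probe each of *Rpl31* (0.25), *Rps12* (0.14) and *Rps24* (0.14) was also higher with no overlap. The gene values of *Rpl31* and *Rps24* were −0.16 and −0.11. The 5125 genes have smaller errors than most genes: the median SE was 0.12 over them and 0.21 over all genes. The ribosomal protein genes had a median SE of 0.09 and were brighter than these 5125. In KO lungs the array medians were 12.28 to 12.49 against 8.85 to 8.89. In WT lungs they were 12.01 to 12.24 against 8.87 to 8.91.

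Paralogs of ribosomal proteins replace the main protein in some tissues. *Rps27l*, a p53 target, had levels of 12.91, 13.13 and 13.30 in KO lungs and 13.22, 13.36 and 13.42 in WT lungs. Only KO 235 lay inside the WT range, and the difference was −0.23 (SE 0.07, adjusted p = 0.159 from limma). Its main paralog was not analysed here. *Rpl22l1* had a difference of 0.06 and *Rpl22* of −0.10, *Rps4l* of −0.11 and *Rps4x* of −0.01, and *Rpl7l1* of −0.03, all of adjusted p of 0.691 or more. The differences without the library labelled KO 157 were 0.0088 for *Rpl22l1*, −0.05 for *Rpl22* and −0.00049 for *Rps4l*. *Rpl39l*, a gene of male germ cells, was detected on 0 arrays, so no fold is given, and *Rpl39* had a difference of 0.04 (adjusted p = 0.83).

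*Rpl3l*, which replaces *Rpl3* in striated muscle, had the largest SD of the 62 genes in both groups. Its levels were 4.89, 5.76 and 7.72 in KO lungs and 4.96, 5.45 and 8.52 in WT lungs, and the difference was 0.10 (SE 0.56, adjusted p = 0.959 from limma) and 0.34 without the library labelled KO 157, while *Rpl3* had 0.03 (SE 0.07, adjusted p = 0.892). The highest lung was WT 187, followed by KO 192 and KO 186. The same 3 lungs had the highest summed linear signal of 5 skeletal muscle markers, 22882 in WT 187, 13385 in KO 192 and 9566 in KO 186. The sum was 5532 in KO 235, 6072 in KO 237 and 6962 in KO 238, and 573 to 2075 in the other WT lungs. In the library labelled KO 157 it was 670. All 5 muscle markers had positive differences, with a median of 2.17, and 3 had an unadjusted p under 0.05. Without the library labelled KO 157 all 5 had such a p, with a median of 2.77. The part of muscle in the levels of *Rpl3l* was not tested. The mean level of the 62 genes was 10.86 in WT 187, inside the range of the other WT lungs. It was 10.91 in KO 192 and 10.86 in KO 186. Whether muscle had a part in the levels of ribosomal protein genes other than *Rpl3l* was not tested.

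**Figure D3:**
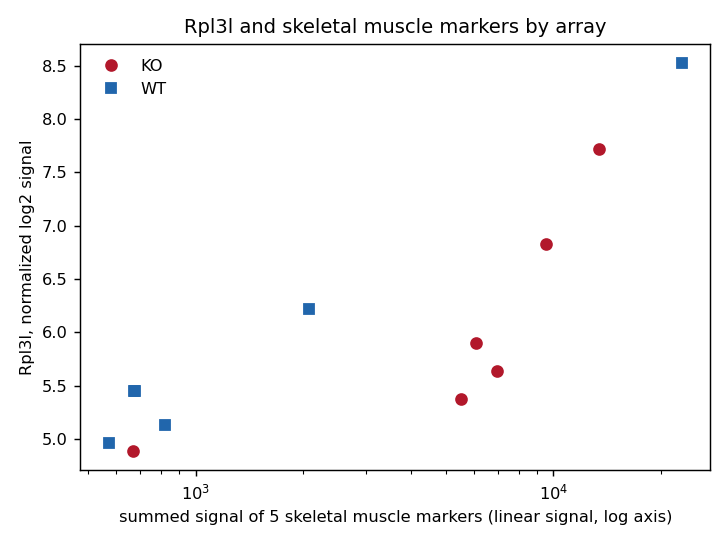
Normalized log2 signal of Rpl3l (y axis) against the summed linear signal of 5 skeletal muscle markers (x axis, log scale) on the 6 KO and 6 WT arrays. The 3 lungs with the highest marker sum, WT 187, KO 192 and KO 186, also had the highest Rpl3l.

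A level of the whole group on each array depended on how it was summarized. The median of the 62 genes was 12.28 to 12.49 in KO lungs and 12.01 to 12.24 in WT lungs, with no overlap and a difference of 0.23. The middle of the list was always taken by a few genes, namely *Rpl19*, *Rpl23*, *Rps3a1*, *Rps25*, *Rpl27a* and *Rpl7a*, of which 3 were among the 12 higher genes. The mean of the 62 genes was 10.76 to 10.92 in KO lungs and 10.74 to 10.89 in WT lungs, which overlapped, with a difference of 0.02. With the brightest probe of each gene the difference of the medians was 0.02. The median of the 5125 other genes with a mean log2 signal of at least 6.845 was 8.85 to 8.89 in KO lungs and 8.87 to 8.91 in WT lungs.

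**Figure D4:**
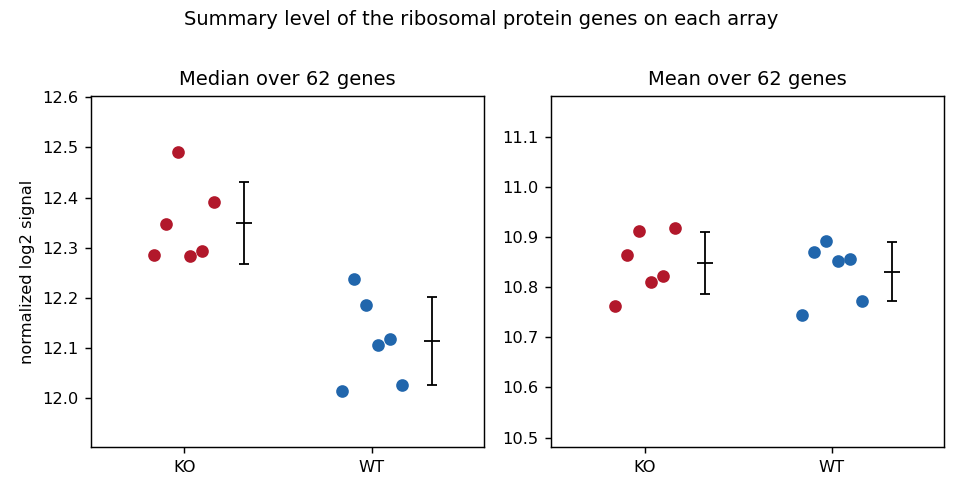
Median (left) and mean (right) of the normalized log2 signals of the 62 ribosomal protein genes on each array, KO left of WT, with the mean and SD of each group; both axes span the same range. The medians do not overlap (12.28 to 12.49 in KO and 12.01 to 12.24 in WT lungs), and the means do (10.76 to 10.92 in KO and 10.74 to 10.89 in WT lungs).

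Different probes of 1 gene did not always have the same difference. Between the 2 probes of a gene that were detected on all 12 arrays, 33 pairs in 17 genes could be compared, and 8 pairs differed at p under 0.05 in a two-sided exact permutation test, of which 0 passed after adjustment over the 33. The smallest p that 6 against 6 arrays allow is 0.00216. The 4 probes of *Rpl27a* had differences of 0.38, 0.01, −0.03 and −0.20. The log2 ratio of the first to the last of these probes was 1.95 to 2.63 in KO lungs and 1.53 to 2.02 in WT lungs, a difference of 0.57 (exact permutation p = 0.00433, adjusted p = 0.143). The 2 probes of *Rps2* had differences of 0.16 and −0.12 (exact permutation p = 0.0108, adjusted p = 0.167), and a pair of *Rpl31* had −0.16 and 0.25 (exact permutation p = 0.0152, adjusted p = 0.167). At the level of single probes, 0 of the 92 passed, against 0.0745% of all probes higher and 0.0889% lower, and 20 were higher and 4 lower at an unadjusted p under 0.05, against 6.2% and 7.54% of all probes. Ribosomal protein genes have many processed pseudogenes, and what each probe binds beside its gene was not tested. These 3 genes are named for their small p.

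For 7 genes no probe was detected on all 12 arrays. *Rpl6*, *Rpl17* and *Rpl39l* were detected on 0 arrays, *Rpl14* on 3, *Rpsa* on 6, *Rps23* on 7 and *Rps20* on 10, so the values of these genes lie at or near background. Of the other 55, *Rpl37*, *Rplp2*, *Rps13* and *Rps24* were medians that took in a probe detected on fewer arrays. The *Rpl37* value of 2.92 in KO lungs and 2.96 in WT lungs was at background, since 2 of its 3 probes were detected on 0 arrays. The remaining probe averaged 14.66 in KO lungs and 14.60 in WT lungs, a difference of 0.07 (adjusted p = 0.733 among probes, from limma).

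Genes that make or accompany the ribosome were set beside the ribosomal protein genes, and none of 170 genes in 5 lists passed the adjusted threshold in limma. Of 17 genes of ribosomal RNA transcription, the process in which cavin-1 was first described, the median difference was −0.05. At an unadjusted p under 0.05, 1 was higher (5.88%) and 2 were lower (11.8%), against 6.22% and 7.44% of all genes. *Taf1d*, a subunit of the selectivity factor of polymerase I, had a difference of 0.36 (SE 0.11, adjusted p = 0.182 from limma). *Polr2h* (−0.27) and *Polr2l* (−0.23), subunits shared by the nuclear RNA polymerases, had adjusted p of 0.326 and 0.356. With the library labelled KO 157 left out, 1 gene of this list was higher and 0 were lower at an unadjusted p under 0.05. Over all 19057 genes, 1044 were then higher and 1242 lower. *Polr2l* then had a difference of −0.14. *Ttf1*, the termination factor, was dim, with 3.15 ± 0.35 in KO lungs and 3.52 ± 0.30 in WT lungs (adjusted p = 0.512).

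Of 42 ribosome assembly factors, 8 had a positive and 34 a negative difference, with a median of −0.12. At an unadjusted p under 0.05, 1 was higher (2.38%) and 10 were lower (23.8%), against 6.22% and 7.44% of all genes. Of all genes, 9228 had a positive and 9829 a negative difference. The 42 include 6 genes detected on 0 arrays, of which *Nop16* and *Utp20* are among the 10. Of the 34 assembly genes detected on at least 6 arrays, 6 had a positive and 28 a negative difference, with a median of −0.11, and 1 was higher and 8 were lower at an unadjusted p under 0.05. *Pes1*, a factor of large subunit assembly, averaged 8.51 ± 0.75 in KO lungs and 9.45 ± 0.27 in WT lungs (SD, n = 6 each), a difference of −0.93 (SE 0.27, adjusted p = 0.134 from limma). *Nop56*, a core protein of the box C/D particles that guide methylation of ribosomal RNA, had −0.43 (SE 0.13, adjusted p = 0.159). *Rrp1* (−0.54) and *Rrp12* (−0.43), of subunit maturation, had adjusted p of 0.192 and 0.205. *Pes1* and *Nop56* passed the threshold without KO 192, with adjusted p of 0.0302 and 0.048. KO 192 had the highest level of all lungs for each of the 3 detected liver markers, *Apoa1* (11.09), *Ttr* (11.21) and *Afp* (10.20). What part this had in the results that changed without KO 192 was not tested. The library labelled KO 157 had the lowest *Pes1*, *Nop56* and *Rrp12* of all lungs. With KO 157 left out, *Pes1* had a difference of −0.75 and *Nop56* of −0.34, with adjusted p of 0.205 and 0.235 from limma. *Rrp12* then had −0.34 and *Rrp1* −0.56, and no assembly factor passed. The 3 markers of dividing cells had differences of −0.66, −0.49 and −0.36, and summed linear signals of 92.6 to 395 in KO lungs and 159 to 275 in WT lungs; their part in the assembly factors was not tested. Without the library labelled KO 157, 9 assembly factors had a positive and 33 a negative difference.

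Of 20 other genes whose mRNAs carry a 5′ TOP motif, 5 were higher (25%) and 2 lower (10%) at an unadjusted p under 0.05. The shares over all genes were 6.22% and 7.44%, and the median difference of the list was 0.18. *Eef1a1*, the elongation factor that delivers tRNA to the ribosome, averaged 14.35 ± 0.14 in KO lungs and 14.63 ± 0.05 in WT lungs with no overlap (−0.28, SE 0.07, adjusted p = 0.0911 from limma, and 0.0402 without KO 192). *Eif3f*, a subunit of initiation factor eIF3, averaged 13.75 ± 0.04 in KO lungs and 13.53 ± 0.09 in WT lungs with no overlap (0.23, SE 0.06, adjusted p = 0.111). *Eif4b* (0.36) and *Eef2* (0.30), an initiation and an elongation factor, had adjusted p of 0.185 and 0.252. At an unadjusted p under 0.05, 3 genes of this list were higher and 2 lower without the library labelled KO 157. Over all 19057 genes, 1044 were then higher and 1242 lower. As among the ribosomal proteins, very bright genes of this list had differences of both signs.

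Of 15 regulators of mTORC1 and of 5′ TOP mRNAs, 2 were higher (13.3%) and 0 lower at an unadjusted p under 0.05. The shares over all genes were 6.22% and 7.44%, and the median difference of the list was 0.02. *Larp1*, which binds 5′ TOP mRNAs, had a difference of 0.56 (SE 0.19, adjusted p = 0.2 from limma) as the median of its probes, and −0.28 by its brightest probe. *Eif4ebp1* (0.22), *Tsc2* (0.19) and *Mlst8* (−0.23) had adjusted p of 0.33 to 0.416. Of 76 mitochondrial ribosomal protein genes, 21 had a positive and 55 a negative difference, with a median of −0.08. At an unadjusted p under 0.05, 1 was higher (1.32%) and 7 were lower (9.21%), against 6.22% and 7.44% of all genes. Those with the smallest p were *Mrpl39* (−0.45, adjusted p = 0.113), *Mrps18c* (−0.28), *Mrpl57* (−0.70) and *Mrpl24* (0.23). Without the library labelled KO 157, 33 had a positive and 43 a negative difference, with a median of −0.03.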

How the data were processed

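Lung RNA of 6 KO and 6 WT newborn mice was measured, with 1 array per mouse and groups taken from the sample titles. The authors deposited the mean bead intensity of each probe as GenomeStudio gave it, neither background-subtracted nor normalized. The detection p-value deposited beside each intensity was used as given. The authors' processed intensity values, background-subtracted and quantile-normalized on a linear scale, served only as an alternative, floored at 16.

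Background was removed with RMA's normal-exponential model, followed by quantile normalization and log2, using R 4.3.3 and limma 3.58.1. Of 45281 probes, 34885 had 1 gene in the platform annotation, 18 had several and were left out, and 10378 had none. The median over a gene's probes gave 19057 genes. KO and WT were compared with limma with a mean-variance trend over all genes, with Benjamini-Hochberg adjustment and a threshold of 0.05. The mice are separate animals. The share of probes at a detection p under 0.05 was 45.3% to 49.1% on an array. Precision is limited by how many arrays there were.

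The genes and lists were chosen with earlier results of these data known. Genes named in detail are those past the threshold, the 5 highest and 5 lowest differences among genes detected on at least 6 arrays, the 5 smallest p, genes of known role, paralogs, and up to 4 genes of smallest p per list; others were picked after their values were seen. Lists held 21, 43, 23 and 16 genes before matching (ribosomal RNA transcription, ribosome assembly, other 5′ TOP mRNAs, mTORC1), and the 76 mitochondrial genes were taken by symbol. Marker lists of endothelium, blood, leukocytes and liver, 5 measured genes each, had summed linear signals of 4618 to 6320, 29742 to 40671, 12627 to 19075 and 166 to 5735 in KO lungs, and of 4812 to 5915, 30034 to 42191, 14164 to 18142 and 232 to 832 in WT lungs. Single markers were higher in KO lungs at an unadjusted p under 0.05 from limma: *Pecam1* (0.44) and *Tie1* (0.44) of endothelium, and *Apoa1* (1.70) of liver. Positive and negative differences numbered 3 and 2 in the endothelium list and 4 and 1 in the liver list. No marker of these lists passed the adjusted threshold.

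The test was checked on simulated arrays. SAM was written in R with 100 unpaired permutations, and the methods' t-test, other background corrections, normalizations, filters, probe rules and left-out arrays were alternatives. After seeing the data, the probe pairs, values with no normalization between arrays and combinations without KO 157 were added. Plots used matplotlib 3.10.9 in Python 3.11.15.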

Additional observations from a re-analysis of the deposited data

Results flagged for a closer look

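Among the 48 groups of 6 lungs examined for 1 value far from the rest, 5 held such a value, where chance gives about 1 in 20. *Rpl10a* was low in WT 142, at 14.25 against 14.46 to 14.50 in the other WT lungs. *Rpl3* was low in KO 186, at 13.90 against 14.10 to 14.19 in the other KO lungs. *Rpl39l*, which was not above background on any array, read 1.66 in KO 186 and 2.30 to 2.58 in the other KO lungs. *Rpl3l* was high in WT 187, at 8.52 against 4.96 to 6.21 in the other WT lungs, and this lung had the highest sum of skeletal muscle markers. *Cavin1* was high in the library labelled KO 157, at 10.07 as the median of its 2 probes, against 2.72 to 4.13 in the other KO lungs.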

How the results depend on the processing

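Signal over background limits what can be read for 7 of 62 genes, which had no probe detected on every array, and the brightest probes of an array are held to a common top by quantile normalization. No ribosomal protein gene passed the threshold with another background correction, median scaling, cyclic loess, the authors' values, the brightest probe, each probe on its own, limma without a trend, SAM or the methods' t-test. The gene count was 1 with a detection p under 0.05 in 6 arrays (also with KO 157 left out), 2 with a detection p under 0.01, 1 with array weights, 3 with no normalization between arrays (*Rpl41*, *Rplp1* and *Rps29*), and 0 to 1 with 1 array left out, where *Rplp1* passed without KO 192. Among single probes, 1 passed with no background correction, 1 and 3 with the filters, 1 with array weights and 4 with no normalization. Of the list genes, 4 passed with no normalization and 0 to 3 with 1 array left out (*Eef1a1*, *Nop56* and *Pes1* without KO 192). The higher genes at an unadjusted p under 0.05 numbered 1 with median scaling, 19 with each probe on its own, 6 without a trend, 7 without KO 235, 237 and 238, and 0 with no normalization, where 20 were lower. The difference of the array medians was 0.018 with a detection p under 0.01, 0.020 with the brightest probe, 0.043 with the brightest probe and KO 157 left out, and −0.042 with no normalization. Probe pairs past the threshold numbered 2 with median scaling and 2 with cyclic loess.

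With no normalization between arrays the median difference was −0.26 over the ribosomal protein genes and −0.26 over all genes, and these genes changed sign: *Rpl19* (−0.0054), *Rpl10a* (−0.21), *Rplp2* (−0.0037), *Rps19* (−0.28), *Rpl22l1* (−0.23), *Rpl3l* (−0.17), *Rpl3* (−0.16), *Rpl39* (−0.25), *Eef2* (−0.0017), *Eif4ebp1* (−0.078), *Tsc2* (−0.10) and *Mrpl24* (−0.063). Differences near 0 changed sign elsewhere. *Rps6* was 0.028 with median scaling, 0.065 with cyclic loess, 0.016 with array weights, and 0.026 with KO 157 left out together with the filter or the brightest probe. *Rps19* was −0.018 with median scaling. Without KO 235, 237 and 238, *Rps19* was −0.010, *Rpl22l1* −0.0018, *Rpl7l1* 0.0049, *Rpl3* −0.012 and *Rps4x* 4.95e-05. *Rps4x* was 0.016 with KO 157 left out together with the filter or the brightest probe, and *Rpl3l* was −0.0057 with no background correction. *Larp1* was −0.28 with a detection p under 0.01, the brightest probe or each probe on its own, and −0.30 with the brightest probe and KO 157 left out. With 1 array left out, *Rps6* was −0.043 to 0.035, *Rpl3l* −0.23 to 0.62, *Rpl7l1* −0.091 to 0.010 and *Rps4x* −0.034 to 0.016. The causes were not tested. The study describes its array lungs as coming from pairs of mice. The sample titles do not say which KO and WT lungs formed a pair, so no paired analysis was made.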
